A study of Mus musculus with 2 samples.

Results

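The peaks at 3 thermogenic genes, Ucp1, Ppargc1a and Prdm16, were examined for DNA methylation in visceral fat under 2 diets. They were chosen by position, as all peaks that reach by at least 1 bp into a window of each gene with about 10 kb on either side. The windows in mm9 were chromosome 8 from 85804 to 85833 kb (Ucp1), chromosome 5 from 51835 to 51956 kb (Ppargc1a) and chromosome 4 from 153680 to 154021 kb (Prdm16). They held 61 of the 166432 nuclear peaks with regular chow (STD) and 74 of the 175767 with high-fat diet (HFD). Both groups were male C57BL/6J mice, an inbred strain, assigned at 4 weeks of age to standard chow or to a diet with 60% of its calories from fat, and kept on it for 5 months. Epididymal white adipose tissue, the fat pad next to the testis, gave 1 MeDIP-seq library per diet, and the number of mice behind each is not given in the sources used here. In this assay an antibody pulls down DNA pieces with methylated cytosines before sequencing, so that clusters of methylated CpG sites appear as peaks. With 1 library per diet no test between diets was possible. The intervals below are at 95%. They reflect counting error alone and take each peak as independent of the next. The lists give positions without counts, so depth is unknown and a stretch without a peak may still be methylated. The tissue label was not checked against marker genes, which peak positions cannot give. Fat holds many cell types, and a methylated site in few cells cannot be told apart from partial methylation in many.

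Non-shivering thermogenesis in brown and beige adipocytes rests on UCP1, an inner-membrane protein of mitochondria that lets protons return to the matrix without ATP synthesis, so that fuel is burned to heat. PPARGC1A (PGC-1alpha) is a transcriptional coactivator that drives mitochondrial biogenesis and helps switch on Ucp1 after cold or adrenergic stimulation. PRDM16 is a zinc-finger transcriptional regulator that promotes the brown and beige fat program, Ucp1 included. White epididymal fat is known as a depot with little thermogenic gene expression. Promoters dense in CpG sites are commonly unmethylated, whereas gene bodies often carry methylation.

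The sequences at the gene starts show how much CpG each promoter offers to the assay, which captures DNA by its methylated CpG sites. Each runs 5′ to 3′ on the coding strand, from 250 bases before to 50 after the start in RefSeq (build GRCm38.p6), and all 3 genes had an entry. Capitals mark CpG dinucleotides (the motif CG, which reads the same on both strands).
Ucp1: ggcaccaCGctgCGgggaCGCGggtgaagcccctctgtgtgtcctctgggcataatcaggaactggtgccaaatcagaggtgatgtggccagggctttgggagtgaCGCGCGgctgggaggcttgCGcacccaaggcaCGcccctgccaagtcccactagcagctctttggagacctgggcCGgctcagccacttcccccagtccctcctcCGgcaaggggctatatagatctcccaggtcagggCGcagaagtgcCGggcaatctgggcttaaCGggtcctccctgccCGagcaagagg
Ppargc1a: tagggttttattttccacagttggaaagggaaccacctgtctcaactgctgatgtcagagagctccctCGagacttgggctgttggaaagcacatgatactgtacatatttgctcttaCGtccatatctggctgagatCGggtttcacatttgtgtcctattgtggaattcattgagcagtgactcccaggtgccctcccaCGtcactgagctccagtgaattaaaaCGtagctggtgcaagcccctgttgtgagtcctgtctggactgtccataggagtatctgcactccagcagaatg
Prdm16: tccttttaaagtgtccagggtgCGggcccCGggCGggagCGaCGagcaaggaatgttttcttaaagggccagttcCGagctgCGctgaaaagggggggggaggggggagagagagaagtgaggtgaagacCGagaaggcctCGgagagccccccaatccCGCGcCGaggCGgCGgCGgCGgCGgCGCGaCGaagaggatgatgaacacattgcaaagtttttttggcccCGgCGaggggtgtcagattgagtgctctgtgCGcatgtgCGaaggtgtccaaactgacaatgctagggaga

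The Prdm16 promoter held 24 CpG sites in 300 bases and an observed over expected CpG ratio of 0.939. The Ucp1 promoter held 15 and a ratio of 0.479. That of Ppargc1a held 5 and a ratio of 0.282. Among 32851 mouse promoters of the same length, 94.6% held at least 1 CG and the median was 7. Fewer CpG sites than in the Prdm16 promoter were found in 80.0% of them, fewer than in Ucp1 in 65.4% and fewer than in Ppargc1a in 38.0%. These are counts of sites that can be methylated, and say nothing of their state in fat.

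The sequences belong to a later build than the peak lists, so they were not placed on mm9. Positions along a gene are instead given from a nominal start, which lies 10 kb inside the window on the gene's 5′ side. The nominal start was compared with RefSeq by length alone. From the RefSeq start to the end of the gene were 8.11 kb for Ucp1 and 320.8 kb for Prdm16, against 9 and 321 kb between the flanks of their windows, so nominal starts should be right to about 1 kb for both. For Ppargc1a this distance was 113.5 kb against 101 kb. If its 3′ flank is 10 kb, the RefSeq start lies 12.5 kb before the nominal start and 2.48 kb outside the window. The RefSeq gene record of Ppargc1a also reaches 548.1 kb further upstream, through other transcripts, so the DNA on the 5′ side of its window may hold more of the gene.

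Neither list had a peak at the estimated RefSeq start of any of the 3 genes, as far as starts could be placed. For Prdm16, the nearest STD and HFD peaks both began 6.7 kb after the estimated start. For Ppargc1a, whose estimated start is the least certain, the nearest peak of both lists was 5.0 kb after it. No peak of either list lay within 15 kb outside the window on that side. Seen from the nominal start of Ppargc1a instead, an HFD peak without a partner lay only 0.8 kb before it. The starts of its other transcripts were not placed, so peaks at them were not looked for. For Ucp1, the nearest peaks lay before the estimated start, at 2.5 kb (STD) and 2.4 kb (HFD). By these estimated starts, the promoter richest in CpG and the one poorest in it both lacked a peak within the distances given from them.

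The peaks of Ucp1 all lay outside the gene. The window held 3 peaks in each list, and none of them lay between the nominal start and end. Ucp1 has neighbours Tbc1d9 on its 5′ side and Elmod2 on its 3′ side. Upstream, the STD list had a peak of 333 bp on chromosome 8 from 85812104 to 85812436, and the HFD list one of 333 bp from 85812127 to 85812459. These are partners, which means that they overlap by at least 1 bp. Both were centred 1.7 kb before the nominal start, with midpoints 23 bp apart. Transcription of Ucp1 is known to depend on a promoter and an enhancer upstream of it, and whether this peak touches that enhancer was not determined.

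Downstream of Ucp1, an STD peak of 331 bp from 85826341 to 85826671 had an HFD partner of 278 bp from 85826392 to 85826669, 12.5 kb after the nominal start. Between the upstream and the downstream pair lay 13.9 kb with no peak in either list, from 85812460 to 85826340, which includes the whole nominal gene. The only Ucp1 peak without a partner was an HFD peak of 304 bp from 85829226 to 85829529, 2.55 kb from the nearest STD peak. Across the whole lists, 26.5% of STD peaks and 30.3% of HFD peaks had no partner. At Ucp1 it was 0 of 3 STD peaks (interval up to 70.8%) and 1 of 3 HFD peaks (0.84 to 90.6%), too few to set apart from those shares.

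The remaining STD peak of Ucp1 marks the limit of the window. It was 568 bp wide, from 85803530 to 85804097, broader than 93.3% of its list, and only 97 bp of it lay inside. Its HFD partner, 399 bp wide from 85803546 to 85803944, ended 0.06 kb before the edge and is not among the HFD members. With that pair counted whole, the lists at Ucp1 differed only by the HFD peak of 304 bp.

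Ppargc1a carried 11 peaks in each list over 121 kb, of which 8 in each were partners of one another. The 3 STD and the 3 HFD peaks without a partner made 27.3% of either list (6.02 to 61.0%), near the shares over all peaks. In the direction of transcription, the first pair was 282 bp (STD) and 272 bp (HFD) wide, 7.3 kb before the nominal start. The second was 271 and 313 bp wide, 2.7 kb before it. An HFD peak of 265 bp followed at 0.8 kb before the nominal start, on chromosome 5 from 51946630 to 51946894, and its nearest STD peak was 1.67 kb away. Only 10 bp separated its width from the narrowest HFD peak of all, 255 bp.

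After a stretch of 24.8 kb without a peak, the shared site of Ppargc1a that was broadest with STD followed at 24.4 kb after the nominal start. It was 575 bp wide with STD, from 51921264 to 51921838, and 398 bp with HFD, from 51921398 to 51921795. The HFD peak lay inside the STD peak and was 177 bp narrower, the largest difference among the 8 pairs. Another 21 kb without a peak led to a narrow pair of 286 bp (STD) and 256 bp (HFD) at 45.8 kb. Of 3 equal parts between the nominal start and end of Ppargc1a, the first, 33.7 kb long, held 1 peak in each list. The last held 4 STD and 5 HFD peaks. If the gene starts 12.5 kb before the nominal start, as estimated above, its beginning also holds the peaks listed before the nominal start. The low number in the first part is therefore tied to the nominal start.

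The peaks of Ppargc1a with 1 diet only were spread along the rest of the gene. An STD peak of 371 bp lay at 59.5 kb after the nominal start, 4.22 kb from any HFD peak, and it was followed by a pair of 313 and 303 bp at 64.1 kb. An HFD peak of 333 bp lay at 68.9 kb, with the nearest STD peak 4.47 kb away. At 92.0 kb the HFD list had a peak of 295 bp, and the nearest STD peak was 4.82 kb away. The last STD peak, 273 bp wide, lay in the 3′ flank, 4.54 kb from the nearest HFD peak, which is outside the window. That HFD peak, 278 bp wide from 51833173 to 51833450, was 1.55 kb beyond the edge.

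A cluster near 81 kb held the broadest STD peak of the gene. Within 2 kb, the STD list had peaks of 625, 326 and 374 bp, and the HFD list had peaks of 385 and 434 bp that matched the narrower 2. The STD peak of 625 bp, from 51863798 to 51864422, had no partner and was broader than 95.6% of its list. An HFD peak began 0.266 kb from it, so it counts as matched when a peak within 500 bp is accepted. The final pair was 375 bp (STD) and 369 bp (HFD), at 97.1 and 97.2 kb.

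**Figure D1:**
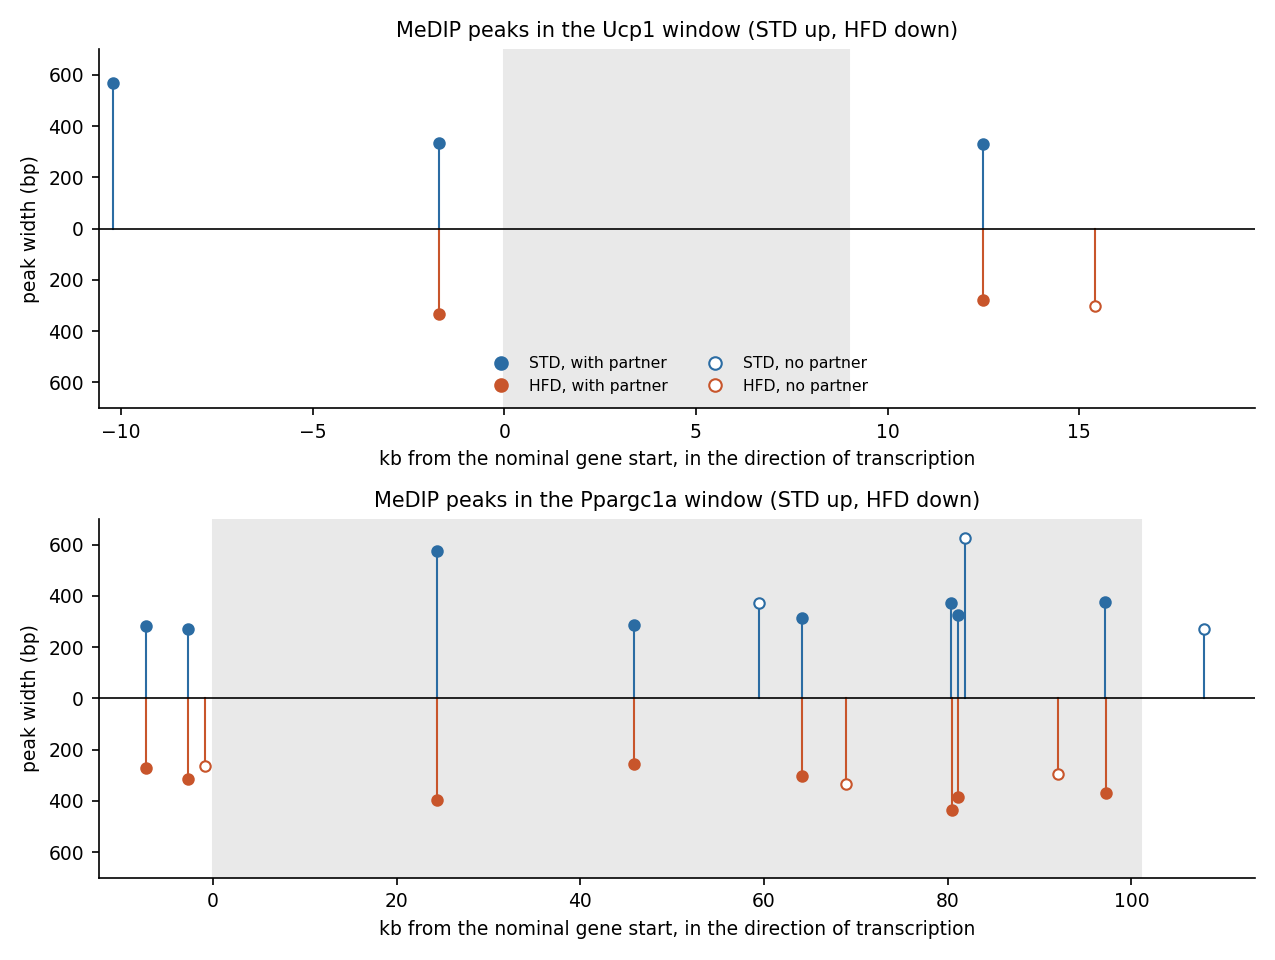
Each stem is 1 peak, placed at its midpoint in kb from the nominal gene start (x axis) with its width in bp as its length (STD upward, HFD downward); filled points have a partner in the other list, open points have none, and the grey band is the window without its 10 kb flanks. The Ucp1 band is empty in both lists, and 8 of the 11 peaks of each list at Ppargc1a are filled.

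Prdm16 had peaks along most of its length, 47 in the STD and 60 in the HFD list over 341 kb. They covered 5.43% and 6.58% of the window. All of them lay between the nominal start and end, and both 10 kb flanks were empty. The 5′ flank and the first 7.0 kb of the gene formed the longest stretch without a peak in either list, 17 kb from 154004027 to the window edge at 154021000. The promoter shown above, with its 24 CpG sites, is estimated to lie in it. The first pair of peaks inside the gene was 315 bp (STD) and 354 bp (HFD) wide, and the last was 428 and 388 bp wide, 318.0 and 317.9 kb after the nominal start. Prdm16 has neighbours Actrt2 on the 5′ side and Arhgef16 on the 3′ side.

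The 3 broadest Prdm16 peaks of each list had a partner. The widest HFD peak, 1308 bp on chromosome 4 from 153714850 to 153716157, was broader than 99.95% of its list. It spanned 2 STD peaks of 646 and 541 bp, which lay 92 bp apart and together reached over 1279 bp. The HFD list therefore had 1 broad peak where the STD list had 2, over nearly the same DNA. The next widest HFD peak was 877 bp, from 153901900 to 153902776, and its partner was the widest STD peak of the gene, 818 bp from 153901952 to 153902769. A further pair was 698 bp (HFD) and 659 bp (STD) wide, 198.2 kb after the nominal start.

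Splits also ran the other way. The second widest STD peak of Prdm16, 694 bp from 153724663 to 153725356, overlapped 2 HFD peaks of 433 and 255 bp that lay 66 bp apart. An STD peak of 385 bp at 172.0 kb overlapped 2 HFD peaks of 280 and 265 bp, with 52 bp between them. Another broad STD peak, 670 bp from 153978715 to 153979384, was matched by an HFD peak of only 328 bp.

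Of the 60 HFD peaks at Prdm16, 25 (41.7%, interval 29.1 to 55.1%) had no STD partner, and of the 47 STD peaks 13 (27.7%, 15.6 to 42.6%) had no HFD partner. The HFD share was above the 30.3% of the whole list, but its interval includes that value, and the STD share was near its 26.5%. Among the peaks without a partner, HFD peaks made 65.8% (48.7 to 80.4%), against 54.7% over all chromosomes. In the surrounding 1 Mb, 40 of 157 HFD peaks had no partner, 25.5% (18.9 to 33.0%), which is below the interval at Prdm16, although the intervals of the 2 shares overlap. Of the STD peaks there, 38 of 155 had none, 24.5% (18.0 to 32.1%), and HFD peaks made 51.3% (39.7 to 62.8%) of those without a partner. The difference between Prdm16 and its surroundings has no replicate and was not tested.

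Prdm16 peaks without a partner were narrower than those with one, as in the whole lists. Their median width was 288 bp with STD and 286 bp with HFD, whereas peaks with a partner had medians of 384 and 367 bp. Over all peaks the medians were 290 and 281 bp without a partner, and 354 and 345 bp with one. An STD peak lay within 5 kb of 22 of the 25 HFD peaks, and an HFD peak within 5 kb of 11 of the 13 STD peaks. In the surrounding 1 Mb, where peaks are about as dense, this held for 32 of 40 and 31 of 38, and over all chromosomes for 60.4% and 63.8%. Among peaks of at least 300 bp, the STD list had 35 and the HFD list 37. Below 300 bp there were 12 STD and 23 HFD peaks. These were 25.5% and 38.3% of the Prdm16 peaks, against 32.2% and 38.6% of the whole lists. Over all chromosomes, too, HFD peaks were the more numerous below 300 bp, with 67759 against 53643, and not from 300 bp on, with 108008 against 112789. The narrowest peak of all was 263 bp with STD and 255 bp with HFD, and 15 STD and 23 HFD peaks of Prdm16 were at most 50 bp above the minimum of their list. That was 31.9% and 38.3% of the Prdm16 peaks, against 40.3% and 42.0% of the whole lists.

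A few Prdm16 peaks without a partner were broad. With HFD these were a peak of 582 bp from 153847571 to 153848152, whose nearest STD peak was 1.11 kb away, and a peak of 580 bp from 153702315 to 153702894, with an STD peak at 2.59 kb. The third, 483 bp wide from 153830363 to 153830845, lay 5.24 kb from any STD peak. With STD, the broadest was 476 bp wide, from 153751643 to 153752118, with 2.67 kb to the closest HFD peak. The STD peak farthest from any HFD peak was narrow, 268 bp at 120.2 kb, with 9.34 kb to the nearest.

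**Figure D2:**
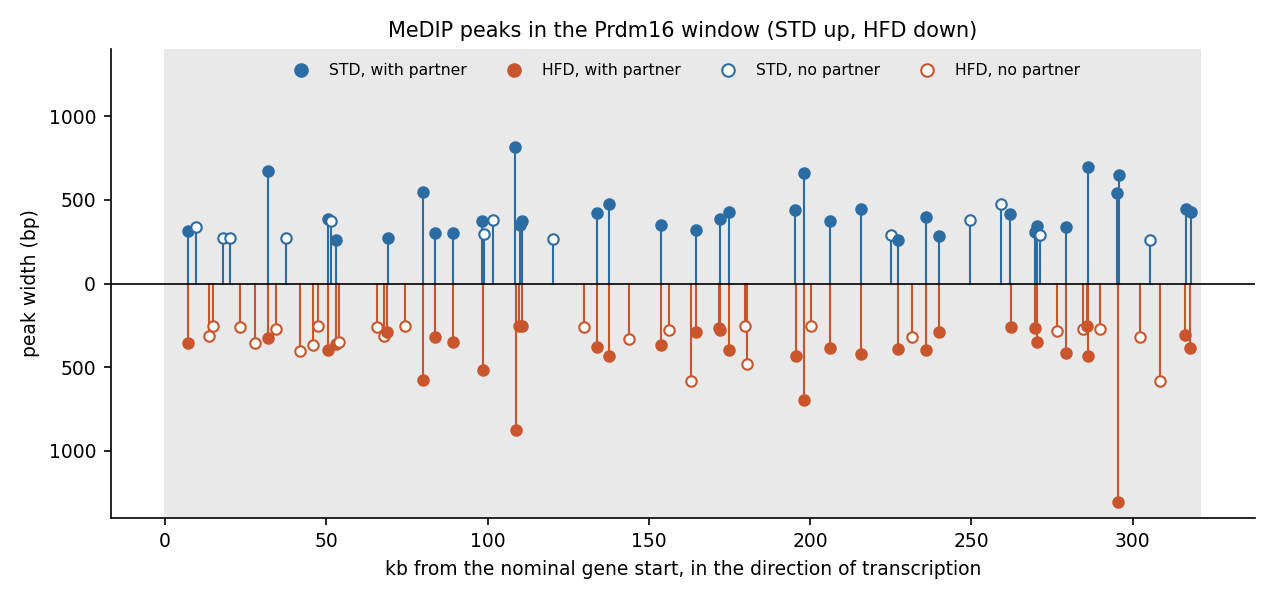
Peaks of the Prdm16 window as stems, by midpoint in kb from the nominal start (x axis) and width in bp (STD upward, HFD downward); filled points have a partner and open points have none, and the grey band is the window without flanks. Both flanks are empty, and the longest stem is the HFD peak of 1308 bp set against 2 STD peaks.

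In both lists, peaks without a partner made up their largest share in the part of Prdm16 nearest its start. This division of the gene into 3 parts was chosen after the positions had been seen and has no test. In that part, 107 kb long, 12 of 21 HFD peaks and 7 of 16 STD peaks had no partner. In the middle part this was 7 of 20 HFD and 1 of 13 STD peaks. In the part nearest the end it was 6 of 19 and 5 of 18. Steps of 20 kb from the nominal start to 320 kb, filled by rounded midpoints, held 1 to 6 HFD and 1 to 5 STD peaks. The only HFD peak counted from 240 to 260 kb, 288 bp wide and printed at 240.0 kb, lies just before 240 kb. By exact midpoint that step therefore holds no HFD peak. Between 60 and 80 kb the rounded counts were 5 HFD peaks and 1 STD peak. An STD peak of 546 bp printed at 80.0 kb lies just before 80 kb by exact midpoint, as does its HFD partner. The gap in that step is therefore smaller than these counts. For the same reason, the rounded counts of 5 STD against 3 HFD peaks between 80 and 100 kb overstate the STD surplus there. Between 240 and 260 kb the rounded counts were 3 STD peaks and 1 HFD peak. Both members of the pair printed at 240.0 kb belong to the step before by exact midpoint.

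**Figure D3:**
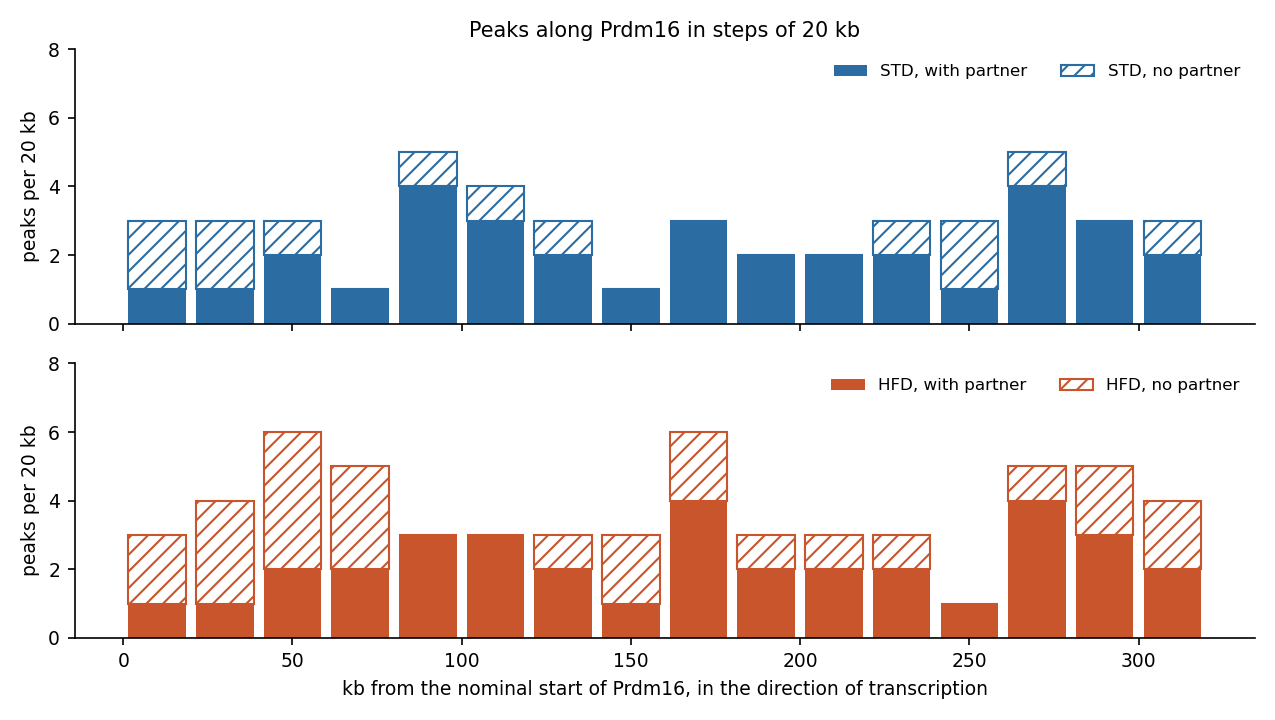
Number of peaks per 20 kb (y axis) against the distance from the nominal start of Prdm16 in kb (x axis), with STD above and HFD below. Peaks are placed by rounded midpoints, so those printed at 80.0 and 240.0 kb stand 1 step late. Solid parts have a partner and hatched parts have none. From 0 to 80 kb hatched parts make up much of the HFD bars, while from 80 to 120 kb all HFD peaks have a partner.

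Peaks with exactly 1 partner on each side allow widths to be compared site by site. At Prdm16 there were 30 such pairs, of which 17 were wider with HFD and 13 with STD. The median HFD minus STD difference was 4.5 bp, with a range of -342 to 144 bp, and it exceeded 100 bp in 6 pairs. At Ppargc1a the median difference of 8 pairs was -8 bp, at Ucp1 that of 3 pairs was -53 bp, and over 120322 pairs of the whole lists it was -8 bp with quartiles of -49 and 32 bp. Midpoints lay a median of 24 bp apart at Prdm16, 21.2 bp at Ppargc1a and 24.5 bp at Ucp1, against 24 bp over all pairs. The medians of Prdm16 and Ppargc1a lay within the quartiles of all pairs, and that of the 3 Ucp1 pairs lay just below the lower one. Those quartiles give the spread of single pairs. A median of several pairs varies less, so its place within them says little about likeness. The Ucp1 pairs include the one whose HFD peak ends before the window edge.

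**Figure D4:**
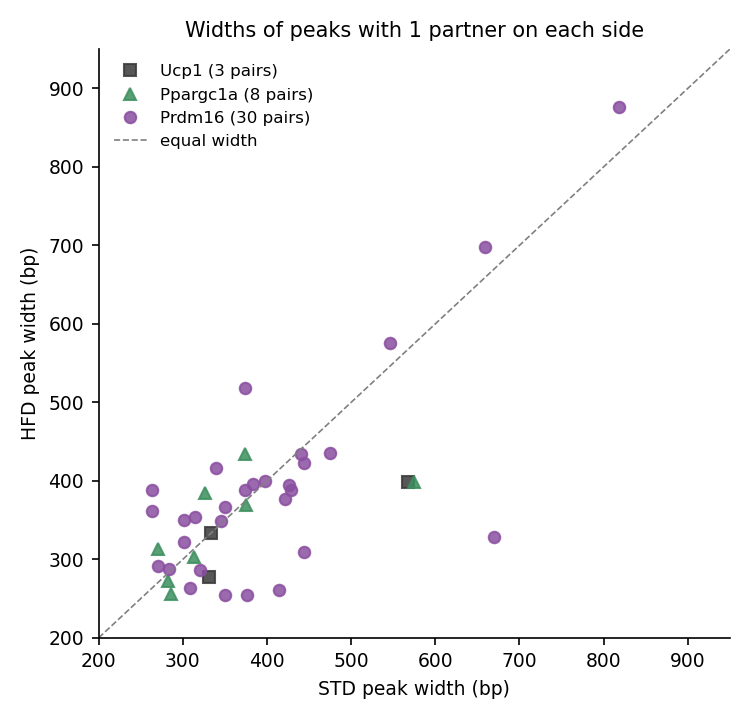
HFD width (y axis) against STD width (x axis), in bp, of the 3 Ucp1, 8 Ppargc1a and 30 Prdm16 pairs with 1 partner on each side; the dashed line marks equal width. Points scatter on both sides of the line, and the farthest from it is a Prdm16 pair of 670 bp (STD) and 328 bp (HFD).

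Peak density was then set against the surroundings, taken as the 500 kb on either side of each window. The genes differed from one another in their surroundings more than the diets did. Around Ucp1 there were 92 STD and 108 HFD peaks per Mb, around Ppargc1a 31 and 44, and around Prdm16 155 and 157. Inside the windows the densities were 103 peaks per Mb in both lists at Ucp1 (21.3 to 302), 90.9 in both at Ppargc1a (45.4 to 163), and at Prdm16 138 with STD (101 to 183) and 176 with HFD (134 to 226).

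Ppargc1a had more peaks per Mb than the DNA on its 3′ side, toward Adgra3. That side held 3 STD and 10 HFD peaks in 500 kb, whereas the 5′ side, toward Dhx15, held 28 and 34. The 5′ side may hold more of the gene, whose RefSeq record reaches 548.1 kb further upstream. It had 56 (STD) and 68 (HFD) peaks per Mb against 90.9 in the window, with overlapping intervals. The window had 2.93 times the density of its surroundings with STD (1.33 to 5.99) and 2.07 times with HFD (0.962 to 4.07). The STD ratio depended on the surroundings chosen: with 1 Mb on either side it was 1.93 (0.934 to 3.62), and against all of chromosome 5 it was 1.185 (0.592 to 2.12). In covered bases, 3.36% of the window and 0.995% of its surroundings were under STD peaks, and 2.99% and 1.38% under HFD peaks.

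Prdm16 and the DNA around it were equally dense in peaks, within counting error. Its window had 0.889 times the density of its surroundings with STD (0.627 to 1.24) and 1.12 times with HFD (0.818 to 1.52), and both intervals include 1. Against all of chromosome 4 the ratios were 1.999 (1.47 to 2.66) and 2.43 (1.85 to 3.13). The 500 kb on the 5′ side held 76 STD and 70 HFD peaks and those on the 3′ side 79 and 87. Among 7070 windows of 341 kb laid end to end over the 19 autosomes, the median was 20 STD and 22 HFD peaks. Fewer peaks than at Prdm16 were found in 89.4% of them with STD and 97.5% with HFD.

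For Ucp1 the ratios to the surroundings were 1.12 (0.228 to 3.39) with STD and 0.958 (0.194 to 2.88) with HFD. Peaks of the surroundings were placed by midpoint, so the STD peak with only 97 bp inside the window counts on both sides of its ratio. With midpoints used for the window too, the STD ratio was 0.750 (0.0894 to 2.79) and the HFD ratio stayed at 0.958. Without flanks the 9 kb of Ucp1 held no peak, a ratio of 0, for which the intervals reach up to 4.55 (STD) and 3.79 (HFD). A gene this short would hold less than 1 peak at the density around it, so the empty gene cannot be told apart from its surroundings. Windows of 29 kb over the autosomes had a median of 1 STD and 2 HFD peaks, and those of 121 kb, the length of the Ppargc1a window, had a median of 7 in both lists.

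**Figure D5:**
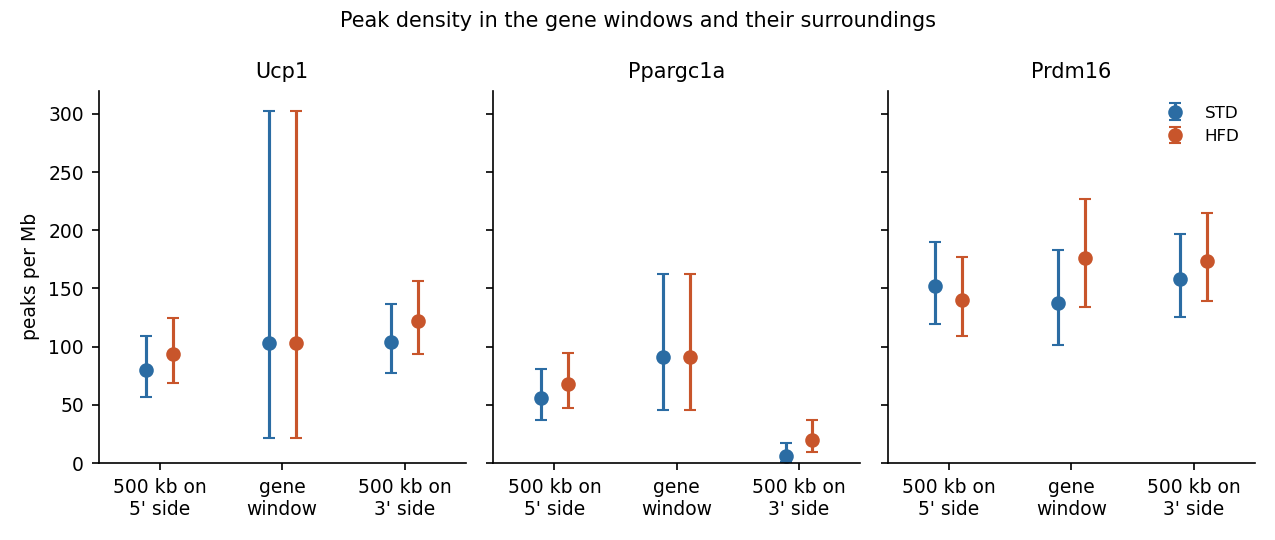
Peaks per Mb (y axis) in the 500 kb on the 5′ side, in the gene window and in the 500 kb on the 3′ side of each gene, with bars for exact 95% Poisson intervals of the number of peaks. The 3′ side of Ppargc1a has the lowest values, 6 (STD) and 20 (HFD), and the intervals of both diets overlap in all 9 regions.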

How the data were processed

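MeDIP-seq peaks of epididymal fat were compared between 1 STD and 1 HFD library, grouped by the diet in the labels. BWA, an alignment program, and the mouse build mm9 are named per the submitters' processing notes. How peaks were called, against which control and from how many mice is not given in the sources used here. Deposited by the authors was 1 BED list per library with peak start and end positions and no score, count or p-value, so presence, position and width were the measurements, and depth is unknown.

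The 19 autosomes, X and Y were used, and 6 mitochondrial peaks per list were set aside. Printed starts count from 1. Gene windows came from the rule for the 3 genes; no mm9 annotation was used, so exons, other thermogenic genes and exact gene starts were not placed. All peaks of Ucp1 and Ppargc1a were described. For Prdm16 these were the 5 widest of each list, peaks without a partner among the 10 widest, the pair nearest each gene end and the longest stretch without a peak. Stretches, steps of 20 kb, gene parts, windows of equal length over autosomes, narrow peaks and single peaks beyond this rule were chosen after values were seen. Genes and lists were chosen with earlier results of these data known.

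Shares have exact binomial (Clopper-Pearson) intervals, densities exact Poisson intervals, and density ratios exact conditional binomial intervals. Python 3.11.15 was used with matplotlib 3.10.9, scipy 1.17.1, pandas 2.3.3 and numpy 2.4.6. The members and their partners were counted again with bedtools 2.31.1, which gave the same numbers, and the functions were tested on simulated data. Promoter sequences, gene lengths and neighbours came from RefSeq (GRCm38.p6), with no coordinates carried over.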

Additional observations from a re-analysis of the deposited data

How the results depend on the processing

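Of 133 recomputed values, 127 stayed within the counting interval of the reported value and 6 left it. Where peaks are few these intervals are so wide that a value can hardly leave them. For the only Ucp1 peak without a partner, the interval of the HFD share was 2.5 to 100%. The number that stayed is therefore no measure of how stable the results are. Cutting the 10 kb flanks left no Ucp1 peak, so its density ratio was 0 in both lists, and its shares could not be computed. In the wider 50% of each list the only HFD peak of Ucp1 had a partner (100%, against 66.7%). Against the whole chromosome, the density ratio moved to 1.185 for Ppargc1a with STD, to 1.999 for Prdm16 with STD and to 2.43 for Prdm16 with HFD. Asking partners to overlap by 50% of the shorter or of the longer peak, or accepting one within 500 bp, put the HFD share of Prdm16 peaks without a partner at 64.4 to 71.4%. It was 56% among peaks of at least 300 bp. The 54.7% over all chromosomes holds for 1 bp of overlap and all widths. No such share is given for the other settings, so these values have no like background. The choice of a peak's midpoint in place of 1 bp of overlap was added after seeing the data. No paired analysis was possible because there is a single library for either diet, which also leaves none to omit.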
